A study of Mus musculus with 12 samples.

Results

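Mir-770, Mir-673, Mir-370, Mir-666 and Mir-667 are 5 single-copy miRNA genes of the imprinted Dlk1-Dio3 region of mouse chromosome 12. The rows were taken by name, as every arm of these 5 genes, which gave 10 of the 513 miRNA arms measured. The 5 genes themselves were chosen with earlier results of these data known. Small RNA had been sequenced from the hippocampus of 12 male wild-type C57BL/6J mice, the standard inbred strain. The exercised lineage was 6 mice of the F2 generation whose grandfathers had exercised, and the sedentary lineage was 6 F2 mice of sedentary grandfathers, with descent through the male line in the study's design. Neither their age nor the form of exercise is stated in the sources used here, and no treatment of the F2 mice themselves is described. The question behind the comparison is whether miRNA levels of grandsons differ with their grandfathers' exercise.

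The Dlk1-Dio3 region is imprinted, so its genes are read from the copy of 1 parent. Protein genes such as Dlk1 and Rtl1 are expressed from the paternal copy, while the noncoding RNAs Meg3, Rian and Mirg and the miRNAs that lie among them are expressed from the maternal copy and are abundant in brain. A miRNA hairpin is cut into a 5p and a 3p arm. The guide arm is mostly the one loaded into Argonaute, where its seed (bases 2 to 8) pairs with target messenger RNAs, and the passenger arm, marked here with an asterisk, is mostly degraded.

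On the GRCm38 build (GENCODE M21), all 5 genes are on the plus strand of chromosome 12. Mir-770 (109563692 to 109563785) lies inside exon 5 of a Meg3 transcript, 22.7 kb after the start of the Meg3 gene. Mir-673 (109571990 to 109572080) is intergenic, 264 bases beyond the annotated end of Meg3. Mir-370 (109618258 to 109618336) lies in an intron of Rian. Mir-666 (109717085 to 109717183) and Mir-667 (109720006 to 109720097) are intergenic, 2823 bases apart, in the dense miRNA stretch before Mirg.

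The mature sequences show what each row counts and that the 5 genes are not a seed family. They are given 5′ to 3′ from RefSeq (GRCm38.p6), which matched 10 of 10 arms, with the seed in capitals.
Mir-770_5p*: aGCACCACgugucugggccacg
Mir-770_3p: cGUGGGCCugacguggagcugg
Mir-673_5p: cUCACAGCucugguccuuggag
Mir-673_3p*: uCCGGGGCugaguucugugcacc
Mir-370_5p*: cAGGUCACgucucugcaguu
Mir-370_3p: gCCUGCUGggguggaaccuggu
Mir-666_5p: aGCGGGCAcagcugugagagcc
Mir-666_3p*: gGCUGCAGcgugaucgccugcu
Mir-667_5p*: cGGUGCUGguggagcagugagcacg
Mir-667_3p: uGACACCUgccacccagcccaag
The 10 arms carry 10 different seeds, and 8 of these occur in no other mature mouse miRNA of the 1738 in the table. The seed of Mir-673_5p is shared with mmu-miR-6985-3p, and that of Mir-370_5p* with mmu-miR-1193-3p, whose gene lies 1294 bases before Mir-666. What the arms share is base composition. G and C make up 55% to 72.7% of each arm (median 68.1%), against a median of 52.2% over all mature mouse miRNAs and 47.8% over the 102 other mature miRNAs of the region, 28 of which reach at least 55%.

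The Mir-770 hairpin shows where the arms sit in the precursor, with the 5p and then the 3p arm in capitals.
Mir-770 hairpin: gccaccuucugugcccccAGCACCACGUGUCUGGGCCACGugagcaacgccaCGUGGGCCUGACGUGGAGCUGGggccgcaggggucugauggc

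Libraries held 6862623 to 10219856 reads on miRNA arms. A normalized count is an arm's read number after division by its library's size factor. Neuronal markers (Mir-9, Mir-124, Mir-128, Mir-129, Mir-138 and Mir-218) made up 34.6% to 40.5% of the counts in exercised-lineage and 35.7% to 39.5% in sedentary-lineage libraries, and all 6 families had rows. Markers of choroid plexus and ependyma (5 of 7 families had rows) ran from 0.551% to 2.76% in exercised-lineage libraries (median 0.738%) and from 0.515% to 2.43% in sedentary-lineage libraries (median 1.32%), with F2_exercised replicate 1 highest, and their part in the results was not tested. Medians in exercised-lineage and sedentary-lineage libraries were 5.26% and 5.31% for endothelial and mural, 0.215% and 0.216% for oligodendrocyte, 0.0244% and 0.0231% for microglial and leukocyte, and 0.00816% and 0.00975% for erythroid markers, with overlapping ranges. That library also held the highest value in 19.8% and the lowest in 25.1% of the 474 arms with a mean of at least 10, the most of any library in each case. The submitters' library codes fall into 4 stems of 3 libraries, R31 and R41 for exercised-lineage and S11 and S41 for sedentary-lineage mice. The meaning of a stem is not stated, and no stem spans both lineages, so each lineage rests on 2 stems. With the stem as a random block in limma, the correlation within stems estimated over all arms was -0.0041, no arm was called, and both arms of Mir-770 had an adjusted p of 0.524. That correlation is 1 value for all arms, so it cannot tell how far stems matter for a given arm. The exact permutation tests below treat the 12 libraries as exchangeable and take no account of stems. In tissue libraries, fewer cells that make a miRNA and less of it per cell cannot be told apart either.

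The 5 genes spanned a wide range of abundance. Mir-370_3p, the 3p guide arm of a miRNA studied in liver as a regulator of the fatty acid oxidation gene Cpt1a, was by far the highest, at a mean of 44961 normalized counts over the 12 libraries, rank 34 of the 474 arms. Mir-770_3p followed at 3590.3 (rank 103) and Mir-666_5p at 1071 (rank 165). The other 7 arms had means of 40.4 to 420.1 and ranks of 218 to 374. The 10 arms are of like length, 20 to 25 bases, so no length correction was applied, but how well each sequence was ligated and amplified was not measured. Mir-370 alone made up a median of 5.47% of all Dlk1-Dio3 counts (range 3.32% to 7.98%), Mir-770 made up 0.473%, Mir-666 0.127%, Mir-667 0.0621% and Mir-673 0.0619%. The ranges of Mir-667 and Mir-673 overlapped (0.0513% to 0.0795% and 0.0502% to 0.0752%), so these 2 genes do not differ in order beyond their spread.

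Both arms of the Meg3-hosted Mir-770 had lower means in the exercised lineage, and neither met the adjusted threshold. For the passenger arm Mir-770_5p*, exercised-lineage replicates 1 to 6 stood at 160.1, 177, 149, 189.8, 178 and 172 normalized counts. Sedentary-lineage replicates 1 to 6 stood at 228, 186, 192, 216, 197 and 189. All 6 exercised-lineage libraries were below the sedentary-lineage median of 195, but F2_exercised replicate 4 was above 2 sedentary-lineage libraries, so the groups overlapped. The means were 171 ± 14.5 and 201 ± 16.9 (SD, n = 6 each), a log2 fold of -0.23 (exercised minus sedentary on log2(value + 1), SE 0.09, 95% confidence interval -0.43 to -0.04, limma adjusted p = 0.532). The spread of this arm was among the smallest of the table: its within-lineage SD of 0.12 log2 was at percentile 5.06 of the tested arms.

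The guide arm Mir-770_3p ran from 2777 to 3943 normalized counts in the exercised lineage (median 3172) and from 3319 to 4413 in the sedentary lineage (median 3923). Here 5 of 6 exercised-lineage libraries lay below the sedentary-lineage median and F2_exercised replicate 1 lay above it. The means were 3268 ± 458 and 3912 ± 383 (SD, n = 6 each), a log2 fold of -0.27 (SE 0.10, interval -0.49 to -0.04, limma adjusted p = 0.532). The 2 arms ordered the exercised-lineage stems differently. The R31 mean was 162 for the passenger and 3496 for the guide arm, and the R41 mean was 179.9 and 3040.1, while S11 and S41 differed little (202 and 200.4 for the passenger, 3977 and 3848 for the guide arm). Without the R41 libraries the fold of Mir-770_3p was -0.17, and without the R31 libraries that of Mir-770_5p* was -0.16, against -0.36 and -0.31 without the other stem. Scaling by library totals gave -0.15 for Mir-770_5p* and -0.18 for Mir-770_3p, a setting in which the median fold over all arms was 0.08.

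**Figure D1:**
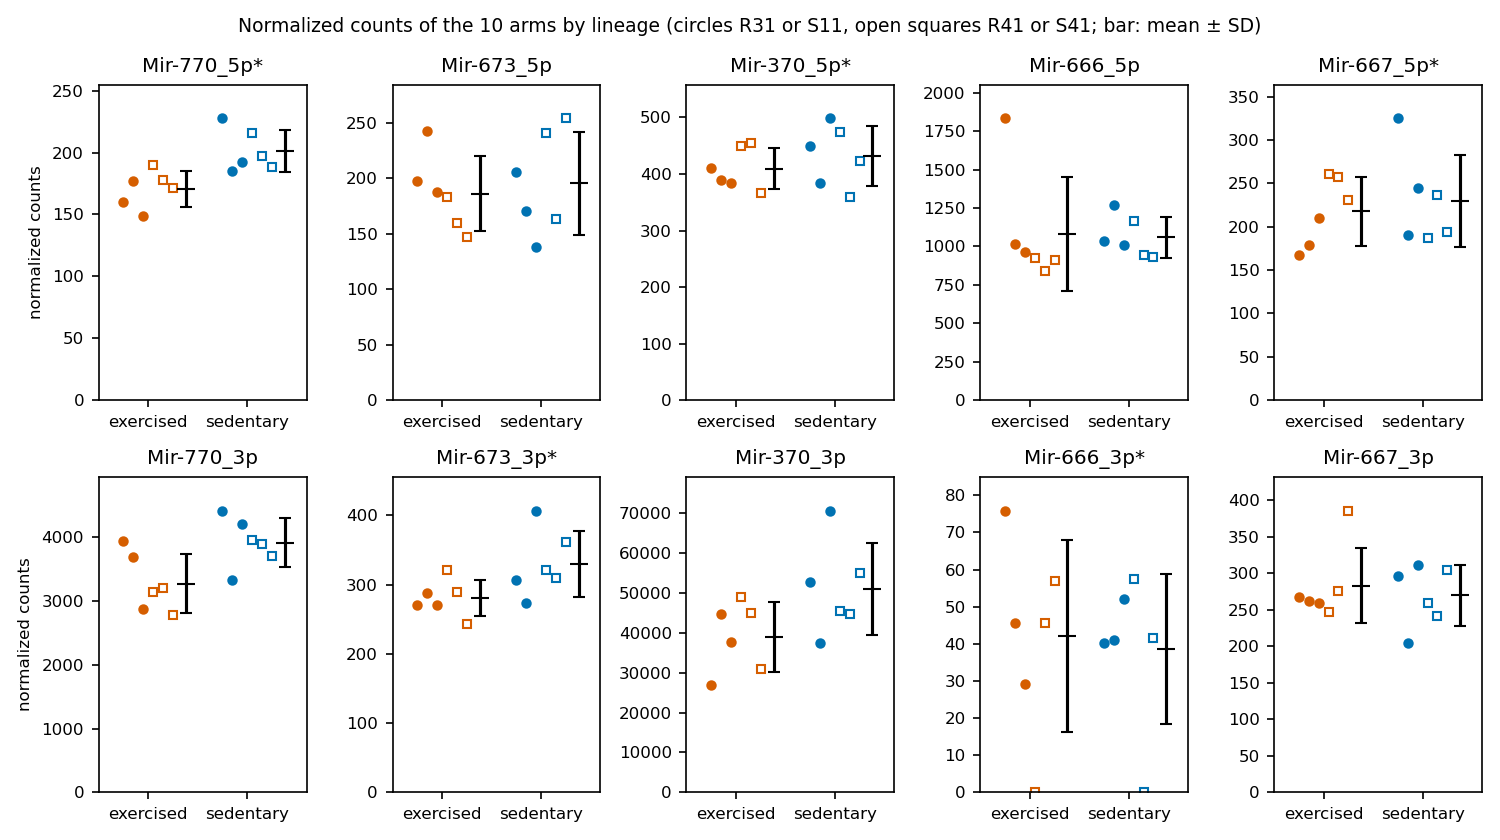
Normalized counts (y axis, from 0, scaled per panel) of the 10 arms in the 6 exercised-lineage (orange) and 6 sedentary-lineage (blue) libraries, in replicate order within a lineage, with filled circles for stems R31 and S11, open squares for R41 and S41, and a black bar for mean ± SD. The 6 exercised-lineage libraries of Mir-770_5p* sit between 149 and 189.8 and the sedentary-lineage libraries between 186 and 228, while Mir-666_5p has 1 high library at 1834 and Mir-666_3p* has 2 libraries at 0.

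Among the other 4 genes, the 3p arms of Mir-673 and Mir-370 had the log2 folds farthest below 0, and no arm was called. Mir-673 is the gene just beyond Meg3. Its 3p arm ran from 243 to 321 in the exercised lineage (median 279.6) and from 273 to 407 in the sedentary lineage (median 315), and 5 of the 6 exercised-lineage values lay under the latter median. The means were 280.4 ± 25.8 and 329.5 ± 47.2 (SD, n = 6 each), a log2 fold of -0.23 (SE 0.11, interval -0.45 to 0.00, limma adjusted p = 0.532). It was -0.14 when libraries were scaled by totals. The 5p arm ran from 147 to 243 (median 185) and from 138 to 254 (median 188), and its lineage ranges covered each other almost fully. Its log2 fold was -0.05 (interval -0.41 to 0.30, limma adjusted p = 0.952).

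Mir-370_3p ran from 26782 to 48953 normalized counts in the exercised lineage (median 41223) and from 37377 to 70566 in the sedentary lineage (median 49072). All 6 exercised-lineage libraries were below the sedentary-lineage median, yet 4 of them were above at least 1 sedentary-lineage library. The highest library, F2_sedentary replicate 3 at 70566, was 2.63 times the lowest, F2_exercised replicate 1. The means were 38981 ± 8761 and 50941 ± 11458 (SD, n = 6 each), a log2 fold of -0.39 (SE 0.17, interval -0.77 to -0.01, limma adjusted p = 0.532), the lowest fold of the 10 arms. Without F2_exercised replicate 1 the fold was -0.29. Its passenger arm Mir-370_5p* was steadier, at 367 to 455 (median 399) against 359 to 498 (median 436), with a log2 fold of -0.07 (interval -0.29 to 0.14, limma adjusted p = 0.806).

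Mir-666_5p stood apart in 1 library. It ran from 843 to 1834 normalized counts in the exercised lineage (median 943) and from 929.99 to 1268 in the sedentary lineage (median 1025), and F2_exercised replicate 1 was at 1834 while the other 5 of its lineage were at 1017 or lower. The means were 1083 ± 373 and 1059 ± 132 (SD, n = 6 each), with a log2 fold of -0.01 (interval -0.38 to 0.35, limma adjusted p = 0.995). Without F2_exercised replicate 1 the fold was -0.18 (limma unadjusted p = 0.0908). That library had the highest share of choroid plexus and ependymal markers, 2.76%. Replicates 3 of the exercised and 1 and 2 of the sedentary lineage, at 2.46%, 2.22% and 2.43%, had Mir-666_5p at 963, 1039 and 1268.

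The passenger arm Mir-666_3p* was the lowest of the 10 and was listed at 0 in F2_exercised replicate 4 and F2_sedentary replicate 5. From the other 11 libraries, 32.3 and 53.6 reads would stand there at the depth of these libraries, so the values of 0 are given as listed and not as absence. In the remaining 10 libraries it ran from 29.1 to 75.9 normalized counts, with means of 50.6 ± 17.2 and 46.5 ± 7.78 (SD, n = 5 each). With the values of 0 the log2 fold was 0.06 with an interval of -2.46 to 2.58, the widest of the 10 arms, and its sign followed the library left out, -0.87 when F2_sedentary replicate 5 was left out and 0.99 when F2_exercised replicate 4 was.

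Both arms of Mir-667 had log2 folds near 0. The guide arm Mir-667_3p ran from 247 to 386 (median 265) against 205 to 311.2 (median 278), with F2_exercised replicate 6 at 386 and the other 5 of its lineage at 276 or lower. Its log2 fold was 0.07 (interval -0.22 to 0.36, limma adjusted p = 0.896) and -0.02 without that library. The passenger arm Mir-667_5p* ran from 167 to 261 (median 221) against 187 to 325 (median 215), with a log2 fold of -0.07 (interval -0.41 to 0.28, limma adjusted p = 0.921). For Mir-667_5p*, Mir-673_5p, Mir-370_5p*, Mir-666_5p and Mir-666_3p* the stem means of each lineage lay farther apart than the lineage means. Mir-667_5p* had stem means of 185 (R31), 250.0 (R41), 253 (S11) and 206 (S41). Mir-673_5p had 209, 163, 171 and 219 in the same order, so its high and low stems were the reverse of those of Mir-667_5p*.

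Across the 10 arms, 8 had a log2 fold below 0 and 2 above, with a median of -0.07, and the lineage values overlapped in every one (no arm of 474 was without overlap, 0%). None was called at an adjusted p below 0.05 in limma, and neither was any of the 474 arms tested (0%). In limma, 3 of the 10 reached an unadjusted p below 0.05, each with a fold below 0. The unadjusted limma p was 0.0232 for Mir-770_5p*, 0.0247 for Mir-770_3p and 0.0429 for Mir-370_3p. Over the whole table, 3.59% of arms were below that p with a fold below 0, and 3.59% with a fold above 0. The 5 genes were picked with results of these data known, so the count of 3 is a description. It also depended on the setting. In the same order, the unadjusted limma p was 0.0865, 0.0972 and 0.05002 with upper-quartile scaling. It was 0.199, 0.244 and 0.0393 with scaling by totals, and 0.0691, 0.0476 and 0.0762 with the replicate block. With the other pseudocounts and filters, and with the stem as a random block, all 3 stayed below 0.05. Among the 71 other tested Dlk1-Dio3 arms, 39 had a fold above 0 and 32 below (median 0.04), with 5 at an unadjusted p below 0.05 in each direction and none called. The median fold over all 474 arms was 0.00. The 95% interval stayed within a 1.5-fold difference either way for 8 of the 10 arms, all but Mir-370_3p and Mir-666_3p*, so for these 8 a larger change lay outside the interval, while smaller ones could be present.

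**Figure D2:**
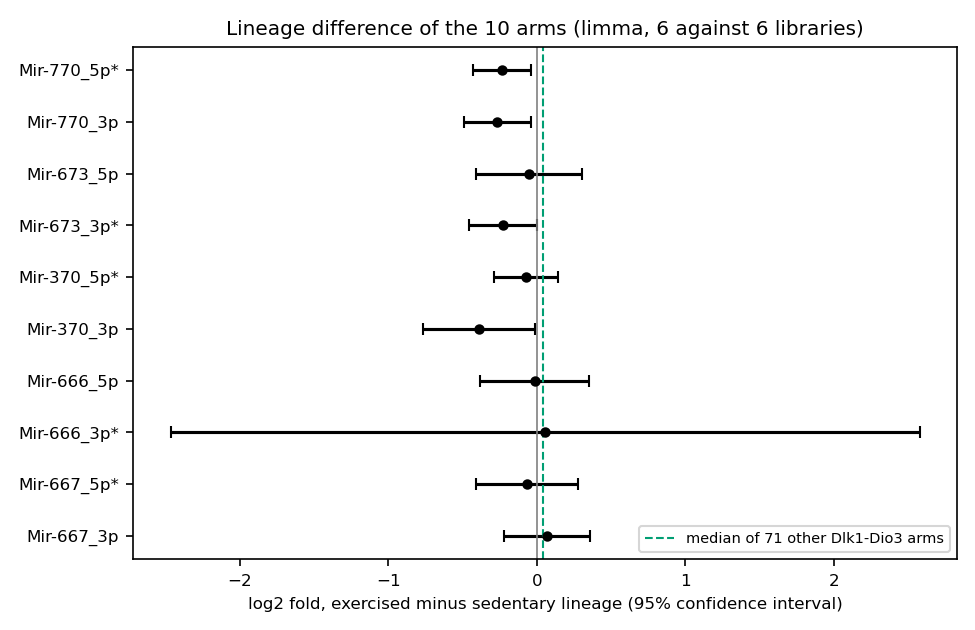
Log2 fold of each of the 10 arms (x axis, exercised minus sedentary lineage on log2(value + 1)) with its 95% confidence interval from limma, 6 against 6 libraries, with the grey line at 0 and the dashed green line at the median of the 71 other Dlk1-Dio3 arms (0.04). The intervals of Mir-770_5p*, Mir-770_3p and Mir-370_3p end just below 0, and that of Mir-666_3p* runs from -2.46 to 2.58.

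The neighbours of these genes and the most abundant arms of the region gave a wider view. Mir-493, the next miRNA gene after Mir-673 (8153 bases on), stood at 76.9 ± 15.2 against 78.7 ± 19.3 normalized counts for its 5p arm (log2 fold -0.02) and at 49.8 ± 9.99 against 57.5 ± 12.5 for its 3p arm (-0.20). Mir-341, the nearest gene before Mir-370 with a row (6663 bases), had a log2 fold of 0.22 for its 3p arm (18043 ± 4278 against 15351 ± 2825), on the other side of 0 from Mir-370_3p, and of -0.23 for its 5p arm. Mir-544, the next gene after Mir-667 with a row of that name (9228 bases), was low, with 17.2 ± 6.60 against 7.50 ± 4.61 for its 5p arm (log2 fold 1.38, interval 0.11 to 2.66, limma adjusted p = 0.532) and a log2 fold of 1.06 for its 3p arm. Each arm was listed at 0 in 1 library, F2_sedentary replicate 1 for the 5p and F2_sedentary replicate 4 for the 3p arm, and without these values the log2 folds were 0.84 (limma adjusted p = 0.561) and 0.34 (limma adjusted p = 0.586). Genes between them that the table names by the Mir-154 and Mir-376 families could not be matched by symbol. The 3 most abundant other arms of the region were Mir-127_3p, Mir-154-P13_5p and Mir-154-P7_5p, with log2 folds of -0.06, 0.11 and -0.08.

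Set against the rest of the region in the same library, the arms of Mir-770 and the 3p arm of Mir-673 again had lower means in the exercised lineage. The measure was the log2 level of an arm minus the median log2 level of the other 80 tested Dlk1-Dio3 arms, in which the size factor cancels except for the pseudocount of 1 (it does not cancel for a value listed at 0). Mir-770_5p* lay at -1.30 ± 0.16 (exercised) and -1.01 ± 0.14 (sedentary lineage, SD, n = 6 each), a difference of -0.29 (exact two-sided permutation p = 0.0108, adjusted 0.298 over the 81 arms of the region). Mir-770_3p lay at 3.05 ± 0.21 and 3.37 ± 0.20, a difference of -0.32 (exact permutation p = 0.0238, adjusted 0.298). Mir-673_3p* lay at -0.59 ± 0.19 and -0.31 ± 0.20, a difference of -0.28 (exact permutation p = 0.0303, adjusted 0.298). Mir-370_3p had the lowest difference, -0.44, with a wider spread (6.61 ± 0.44 and 7.05 ± 0.31, exact permutation p = 0.0823, adjusted 0.351). The other 6 arms had differences of -0.15 to 0.01 and exact permutation p from 0.266 to 0.996. None of the 81 arms, which include those named above, was called after adjustment (0%). Of the 81, 8.64% were at an unadjusted exact permutation p below 0.05 with a difference below 0 and 4.94% with one above 0. Leaving out values listed at 0 was added after the data were seen. It gave -0.24 for Mir-770_5p* (exact permutation p = 0.00866), -0.28 for Mir-770_3p (p = 0.0346) and -0.23 for Mir-673_3p* (p = 0.0823). These results rest on the same libraries as the folds and are not independent of them.

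The balance of the 2 arms differed between the 5 genes, though the ranges of some genes overlapped. Mir-370 was the most one-sided, with its 3p guide 65.3 to 142 times its 5p passenger in each library (median 104). Mir-770_3p was 16.2 to 24.6 times Mir-770_5p* (median 19.3), and Mir-666_5p was 16.1 to 33.1 times Mir-666_3p* (median 22.3) in the 10 libraries with both arms above 0. Mir-667 was nearly even, its 3p guide 0.910 to 1.67 times its 5p passenger and higher in 10 of 12 libraries. In Mir-673 the arm named as passenger was the higher one in 12 of 12 libraries, 1.19 to 2.95 times the 5p guide (median 1.55). Of the 157 genes of the table with 1 guide and 1 passenger arm tested, 18 (11.5%) had the passenger above the guide in all 12 libraries. The names come from the annotation the submitters used and not from these mice. Taken as 5p to 3p, Mir-667 ran from 0.599 to 1.10 and Mir-673 from 0.338 to 0.842, so the 2 ranges overlapped.

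**Figure D3:**
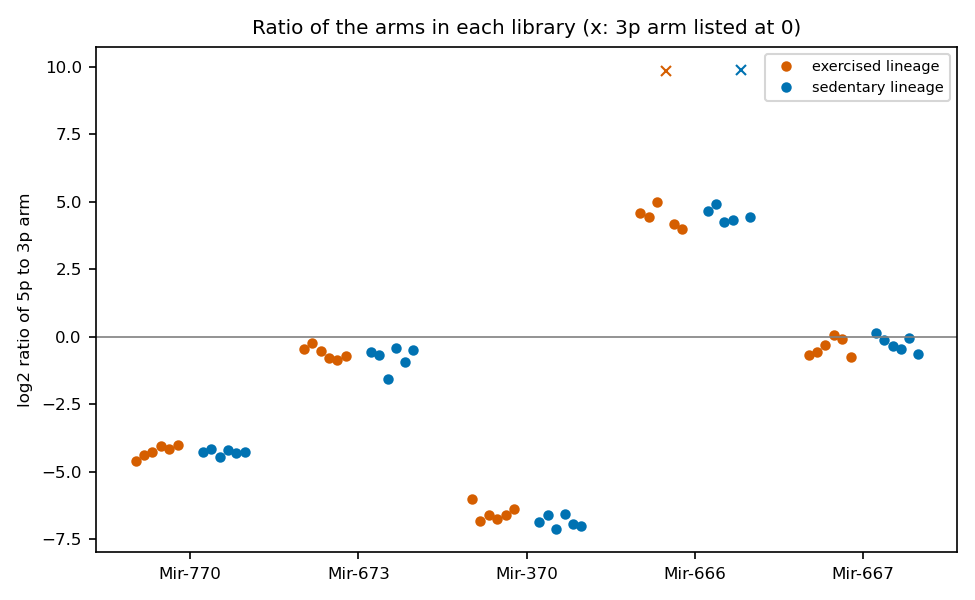
Log2 ratio of the 5p to the 3p arm (y axis, pseudocount 1) of each gene in the 6 exercised-lineage (orange) and 6 sedentary-lineage (blue) libraries. Mir-370 and Mir-770 lie far below 0, Mir-673 lies below 0 in all 12 libraries, Mir-667 lies around 0, and Mir-666 lies near 4 to 5 except for the 2 crosses, where the 3p arm is listed at 0.

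No arm ratio of the 5 genes was called different between the lineages. For Mir-770 the log2 ratio of 5p to 3p was -4.24 ± 0.23 (exercised) and -4.27 ± 0.10 (sedentary lineage, SD, n = 6 each), a difference of 0.03 (exact permutation p = 0.764), beside folds of -0.23 and -0.27 for its arms. The exercised-lineage mean joined 2 unlike stems, with ratios of -4.61 to -4.26 in R31 and -4.16 to -4.01 in R41. Without the R31 libraries the difference was 0.20 (exact permutation p = 0.0357, adjusted 0.417). Without the R41 libraries it was -0.14 (exact permutation p = 0.167, adjusted 0.539). For Mir-370 it was -6.54 ± 0.30 and -6.86 ± 0.23, a difference of 0.32 (exact permutation p = 0.0649, adjusted 0.519 over 175 genes with both arms tested). Mir-673 differed by 0.17 and Mir-667 by -0.14 (exact permutation p = 0.455 for each). Mir-666 differed by -0.08 without the values of 0 (n = 5 each, exact permutation p = 0.722). No gene of the 175 was called after adjustment (0%), and 7.43% were at an unadjusted p below 0.05.

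Although the 5 genes lie in 1 region, correlations between their arms across mice within a lineage ran from negative to high. With the lineage means removed, Pearson's r of log2(value + 1) over the 12 libraries ranged from -0.64 to 0.84 over the 40 pairs of arms from different genes (median 0.16). It ranged from 0.03 to 0.61 over the 5 pairs of arms of 1 gene. The highest value joined Mir-673_3p* and Mir-370_3p (0.84, and 0.94 over the 11 libraries without F2_exercised replicate 1), whereas the arms of Mir-673 had 0.03 with each other. The lowest joined Mir-370_3p and Mir-666_5p (-0.64, and -0.42 without that library, which was lowest in the former and highest in the latter). Values of Mir-770_3p also depended on F2_exercised replicate 1. Without it, r moved from 0.17 to 0.68 with Mir-370_3p, from 0.33 to 0.60 with Mir-770_5p*, and from 0.45 to -0.16 with Mir-666_5p. The arms of a library share its depth and size factor, so these values are a description and carry no test. No baseline from other pairs of arms was set beside them, and the part of counting noise in a low r was not tested.

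**Figure D4:**
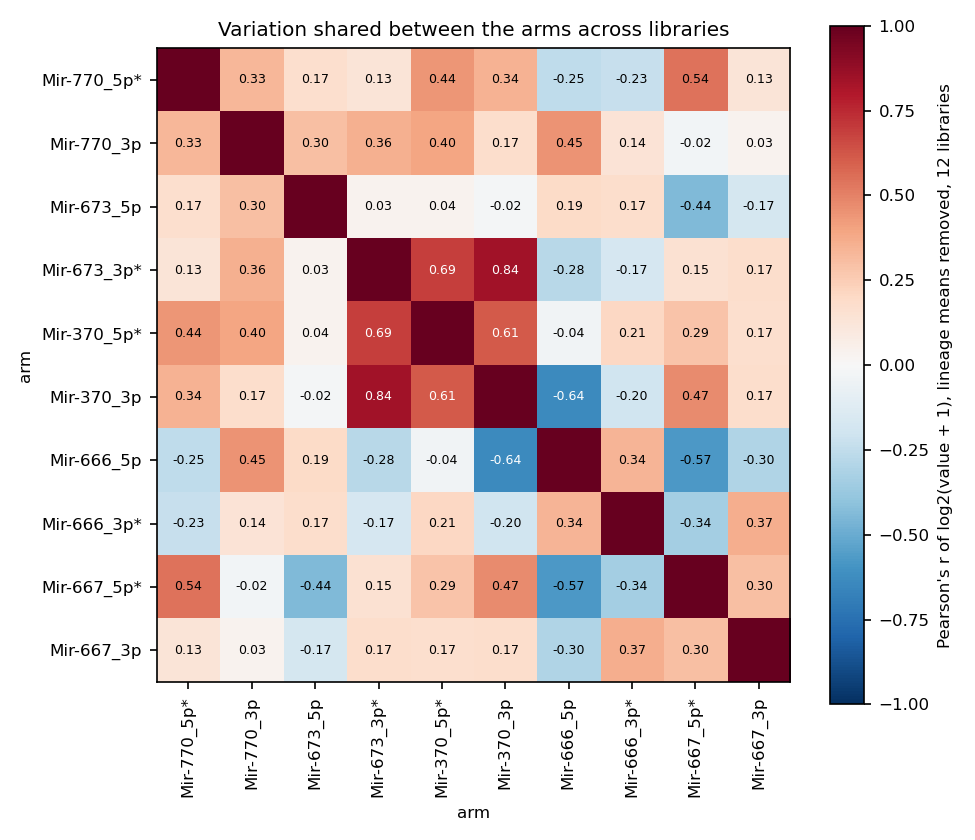
Pearson's r (colour and number) between the 10 arms over 12 libraries, on log2(value + 1) with the lineage means removed. Mir-673_3p*, Mir-370_5p* and Mir-370_3p form the block of highest values (0.61 to 0.84), and Mir-666_5p is negative with Mir-370_3p (-0.64) and Mir-667_5p* (-0.57).

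The 3 arms outside the 5 genes with the most similar variation were found for each arm by the same measure, with r from 0.62 to 0.94. Of these 30 places, 8 went to Dlk1-Dio3 arms, which are 15.3% of the 464 arms searched. Mir-770_3p was most like Mir-10-P3a_3p* (0.90), Mir-342_5p* (0.85) and Mir-744_5p (0.79), and Mir-770_5p* most like Mir-491_3p* (0.67), Mir-362-P1_5p (0.64) and Mir-184_3p (0.62), so neither arm had a Dlk1-Dio3 arm among its 3. Mir-673_3p* was most like Mir-10-P2c_3p* (0.90), Mir-154-P36_3p (0.89) and Mir-154-P17_3p (0.86), the last 2 from the region. Mir-673_5p was most like Mir-328_3p (0.90), its neighbour Mir-493_5p (0.86) and Mir-3061_5p (0.82). Mir-370_3p was most like Mir-1964_3p, Mir-10-P2b_5p and Mir-154-P17_3p (0.92 each), and Mir-370_5p* most like Mir-127_3p (0.80), Mir-219-P1_3p* (0.78) and Let-7-P2_3p* (0.68). Mir-666_5p, with F2_exercised replicate 1 far above the rest of its lineage, was most like Mir-873 5p (0.94), Mir-879_5p (0.91) and the passenger arm of Mir-154-P3a (0.87). How far the similar arms of Mir-666_5p, of Mir-770_3p or of any other arm rest on that library was not tested. Mir-666_3p*, with its values of 0, was most like Mir-7-P3_3p* (0.77), Mir-154-P15_3p* (0.70) and Mir-551-P2_5p* (0.69). Mir-667_5p* was most like Mir-185_5p (0.89), Let-7-P2_5p (0.85) and Mir-154-P18_3p (0.82), and Mir-667_3p most like Mir-3059_5p (0.83), Mir-345_5p* (0.69) and Mir-378_3p (0.69).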

How the data were processed

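Small RNA from 12 hippocampi was sequenced after miRNeasy extraction and NEBNext small RNA library preparation, per the labels' protocols. The deposited signal is reads per mature arm divided by 1 size factor per library, and Bowtie 1.3.0, mm10 and DESeq2 are named without roles in the submitters' processing notes. No source used here states how reads were trimmed or how mismatches and multi-mapping were handled. The values were whole multiples, within 0.01, of 1 step per library, taken as 1 read for depth only. Arms with a mean of at least 10 entered the test (474 of 513, and 10 of 10 of the arms described). limma 3.58.1 in R 4.3.3 was fitted on log2(value + 1) with a mean-variance trend, and p-values were Benjamini-Hochberg adjusted over all tested arms. Arm ratios and levels relative to the region used exact permutation over all 924 assignments, adjusted over all 175 two-armed genes and all 81 region arms in place of the 5 genes alone. The scripts were tested on simulated data. The 5 genes and the lists were chosen with earlier results of these data known. All arms of the 5 genes are named, with the 3 most similar arms each, the nearest neighbours with a row and the 3 most abundant other arms of the region. Python 3.11.15 made the figures. Alternatives covered pseudocount, filter, scaling, blocks and left-out libraries or stems.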

Additional observations from a re-analysis of the deposited data

Results flagged for a closer look

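A library far from the other 5 of its lineage was looked for in the 10 arms and the 5 arm ratios, in 30 groups of 6 libraries. Chance alone would mark about 1 in 20 such groups. Mir-666_5p in F2_exercised replicate 1 stood at 1834 normalized counts, with the next library of the lineage at 1017. Mir-667_3p in F2_exercised replicate 6 stood at 386, with the next at 276. Mir-666_3p* was listed at 0 in F2_sedentary replicate 5, with the next library at 40.2. The log2 ratio of Mir-666 5p to 3p was 9.85 in F2_exercised replicate 4 and 9.89 in F2_sedentary replicate 5, the libraries in which the 3p arm is listed at 0, with the next at 5.00 and 4.92.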

How the results depend on the processing

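No arm, arm ratio or relative level was called under any alternative run (0 calls in each, with the lowest adjusted p over settings 0.318 for folds, 0.347 for arm ratios and 0.150 for levels relative to the region). Neither arm of Mir-770, nor Mir-370_3p or Mir-673_3p*, changed sign in fold or relative level under any of them. With each library left out in turn the fold ran from -0.27 to -0.20 for Mir-770_5p*, -0.32 to -0.22 for Mir-770_3p, -0.28 to -0.16 for Mir-673_3p* and -0.47 to -0.29 for Mir-370_3p. Values near 0 did change sign, and the cause was not tested.

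The mouse numbers do not pair the samples: the deviations of same-numbered libraries had correlations from -0.17 to 0.15, and 1 of 6 exercised-lineage libraries correlated best with its own number. With the replicate block the fold of Mir-770_5p* stayed at -0.23 with a limma adjusted p of 0.720, and 16 arms (7 above 0 and 9 below) were at an unadjusted p below 0.05, against 34 without it.

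With each library left out in turn, the log2 folds that changed sign ran from -0.15 to 0.029 (Mir-673_5p), -0.18 to 0.046 (Mir-666_5p), -0.87 to 0.99 (Mir-666_3p*), -0.12 to 0.039 (Mir-667_5p*) and -0.024 to 0.11 (Mir-667_3p). The arm ratios did so from -0.015 to 0.11 (Mir-770) and -0.97 to 0.82 (Mir-666), and the relative levels from -0.91 to 0.94 (Mir-666_3p*) and -0.073 to 0.060 (Mir-667_3p). Scaling by totals turned the folds of Mir-673_5p (0.033), Mir-370_5p* (0.015), Mir-666_5p (0.072) and Mir-667_5p* (0.019), and upper-quartile scaling that of Mir-666_5p (0.013). Without the R41 libraries the folds of Mir-673_5p (0.12), Mir-666_5p (0.21) and Mir-667_3p (-0.019), the ratio of Mir-770 (-0.14) and the relative levels of Mir-673_5p (0.050), Mir-666_5p (0.14), Mir-666_3p* (0.87) and Mir-667_3p (-0.094) turned. Without S41 this held for Mir-673_5p (fold 0.12, relative level 0.074) and Mir-666 (fold of the 3p arm -0.81, ratio 0.73). Without S11 it held for Mir-666_5p (fold 0.049), Mir-667 (fold of the 5p arm 0.069, ratio 0.0044, relative level of the 3p arm -0.0056) and Mir-666_3p* (relative level 0.85). Without R31 it held for Mir-666 (fold of the 3p arm -0.83, ratio 0.59), Mir-667_5p* (fold 0.15, relative level 0.11) and the ratio of Mir-673 (-0.022). Leaving out values listed at 0, added after the data were seen, turned the relative level of Mir-666_3p* (0.064).

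The edgeR and DESeq2 alternatives were not run: values were whole multiples of 1 step per library, but the smallest positive value stood for 2 to 6 steps, so the step was used for depth and not as the basis of a count test. Counting limits Mir-666_3p* most, at a mean of 40.4 normalized counts.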
